A study of Mus musculus with 6 samples.

Results

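Chemokine ligands are small secreted or shed proteins that direct the movement of leukocytes. The 8 genes described here were matched by symbol and are Ccl3, Ccl4, Ccl5, Ccl6, Ccl9, Cxcl2, Cxcl10 and Cxcl16. All 8 were found among the 15483 genes measured, and all 8 passed the filter, a 6-library mean of 1 FPKM or more. FPKM, the unit of every level below, is the number of fragments scaled by transcript length and by the size of the library, so levels can be compared between genes. The libraries are RNA-seq of regulatory T cells (Tregs) sorted from the bone marrow of wild-type mice. There were 3 libraries from control mice and 3 from mice at 3 months after irradiation (IR), and the series title describes the cells as prematurely aged. By the design text the sort gate was positive for CD3, CD4 and Foxp3 and negative for the natural killer antigen NK1.1. The radiation dose, the strain, the age and the sex of the mice were not given in the sources used here, nor was whether a library held the cells of 1 mouse or a pool.

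Chemokines bind receptors with 7 membrane spans on leukocytes, and the spacing of the first conserved cysteines divides them into the CC and CXC families. Ccl3, Ccl4 and Ccl5 are inflammatory ligands, of which Ccl3 and Ccl5 bind Ccr1. Ccl6 and Ccl9 are rodent ligands of Ccr1 made mainly by myeloid cells. Cxcl2 attracts neutrophils through Cxcr2, Cxcl10 is an interferon-induced ligand of Cxcr3, and Cxcl16 is a membrane-bound ligand of Cxcr6. In bone marrow these signals take part in the retention, release and positioning of blood cells.

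Every one of the 10 Treg and T cell markers examined was above 0 in all 6 libraries, but the libraries also held transcripts known from cells outside the gate. Foxp3 had means of 22.6 ± 1.93 and 12.6 ± 0.795 FPKM in the control and irradiated groups (SD, n = 3), beside 25282.5 ± 1249.0 and 39026.3 ± 427.0 FPKM for the neutrophil gene S100a8. Of 12 neutrophil markers 9 rose after irradiation, and Elane, Mpo and Ly6g did not pass the test. The summed level of the 12 was 64716.2 to 69529.4 FPKM in control and 94304.3 to 97133.0 FPKM in irradiated libraries. Most of that sum was S100a8 and S100a9, the latter at means of 20145.9 and 29889.6 FPKM. Of 10 T cell markers, Foxp3 included, 9 fell, from summed levels of 395.2 to 410.8 FPKM to levels of 235.6 to 241.2 FPKM. Monocyte and macrophage markers (12 of 13), B cell markers (6 of 6), dendritic cell markers (5 of 6 tested), cytotoxic and NK markers (6 of 8), eosinophil markers (3 of 5) and erythroid markers (2 of 4) also fell. Basophil and mast cell markers (4 of 4) and 1 of 3 tested platelet lineage markers rose, and the 2 CD8 T cell markers did not pass the test. As read from the steps between low values, depth was 98.4% to 103% of control replicate 1 in control libraries. In irradiated libraries it was 81.6% to 92.6%, lowest in replicate 3. Each irradiated library was thus shallower than each control library, so effects of depth and of irradiation cannot be separated. Genes above 0 numbered 13775 to 14082 in control and 13501 to 13538 in irradiated libraries. Correlations (r) were 0.9886 to 0.9922 within groups and 0.9745 to 0.9776 between them. In bulk libraries fewer cells of a type and less RNA per cell cannot be told apart. Which cells made the chemokine transcripts was not tested.

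Setting the irradiated against the control libraries shows how transcripts of these ligands differ 3 months after exposure. Ccl3, Ccl4 and Cxcl2 rose, Ccl5, Ccl6 and Cxcl10 fell, and Ccl9 and Cxcl16 did not pass the test. The test was limma on log2(FPKM + 1), with p-values adjusted over all 10666 genes tested and a threshold of 0.05. Among all genes tested 6.29% were called higher and 10.3% lower. The same 6 members had 3 irradiated values beyond all 3 control values, 3 of them higher and 3 lower, and among all genes tested this held for 13.5% in the higher and 20.1% in the lower direction. The median log2 change of the 8 members was -0.12, beside -0.02 over all genes tested. Log2 changes below are irradiated minus control with the standard error from limma, taken after adding 1 to each FPKM value, so that changes of low genes are understated.

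**Figure D1:**
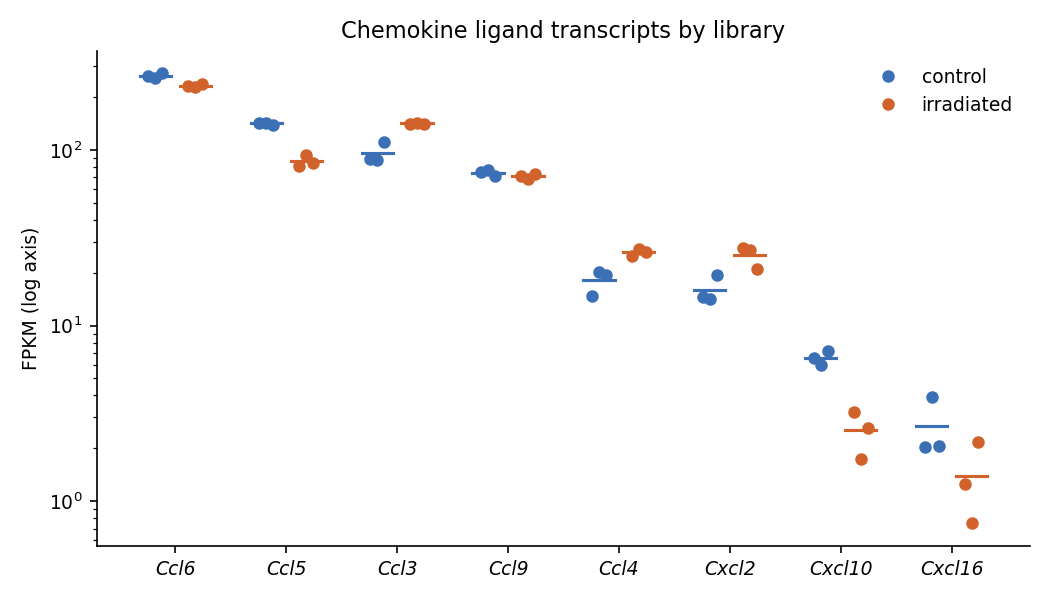
Level of each chemokine ligand gene in FPKM (log axis) in the 3 control and 3 irradiated libraries; points are libraries and bars are group means. The groups of Ccl9 and Cxcl16 overlap, and those of the other 6 genes do not.

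Ccl3, an inflammatory ligand of Ccr1 that also restrains the growth of haematopoietic progenitors, stood at 88.1, 87.5 and 111.2 FPKM in control replicates 1, 2 and 3. In irradiated replicates 1, 2 and 3 it stood at 141.0, 142.1 and 141.1 FPKM. The irradiated values lay within a narrow band above all control values, of which replicate 3 was the highest. Ccl3 rose by 0.57 ± 0.08 (limma adjusted p = 0.000664), from 95.6 ± 13.5 to 141.4 ± 0.606 FPKM (SD, n = 3), or 1.48 times. Ccl4, a related inflammatory ligand, was less abundant, at 14.7, 20.1 and 19.5 FPKM in control libraries. Its irradiated values of 24.8, 27.3 and 26.1 FPKM were all higher than these. Ccl4 rose by 0.51 ± 0.11 (limma adjusted p = 0.00858), or 1.44 times. Neutrophil markers (9 of 12) and basophil and mast cell markers (4 of 4) rose in the same libraries. T cell markers (9 of 10), cytotoxic and NK markers (6 of 8) and monocyte and macrophage markers (12 of 13) fell. The part of any of these cells in the rise of Ccl3 and Ccl4 was not tested.

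Ccl5, a ligand of Ccr1 and Ccr3 that activated T cells and NK cells make in quantity, changed the other way. It stood at 142.5, 141.9 and 139.2 FPKM in control libraries and at 81.2, 93.6 and 84.5 FPKM in irradiated libraries. The control values were nearly equal and all lay above the irradiated ones. Its log2 change was -0.70 ± 0.06 (limma adjusted p = 1.27e-05), and its mean level after irradiation was 0.612 of the control mean. T cell markers (9 of 10, median log2 change -0.69) fell in the same libraries. So did cytotoxic and NK markers (6 of 8), with a median log2 change of -0.93 over the 8. Their summed level went from 244.0 to 261.2 FPKM in control to 201.9 to 208.0 FPKM in irradiated libraries, and most of it was Nkg7 (means 164.2 and 160.8 FPKM), which did not pass. The part of these cells in the fall of Ccl5 was not tested.

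Ccl6 was the most abundant of the 8 genes in every library. It stood at 262.0, 255.5 and 272.6 FPKM in control libraries and at 231.8, 226.4 and 238.3 FPKM in irradiated libraries. The groups did not overlap, but the difference was small, a log2 change of -0.18 ± 0.05 (limma adjusted p = 0.0213). That call was lost without control replicate 1 (adjusted p = 0.0572), without irradiated replicate 1 (0.0632), without irradiated replicate 2 (0.0822) and with median-of-ratios scaling (0.0596). Ccl9, which like Ccl6 binds Ccr1, stood at 74.8, 76.3 and 70.6 FPKM in control and 70.8, 68.4 and 72.7 FPKM in irradiated libraries. These ranges overlapped, and Ccl9 did not pass the test (log2 change -0.06, 95% interval -0.19 to 0.06, limma adjusted p = 0.507). Both are transcribed in myeloid cells, of which the monocyte and macrophage markers (12 of 13) fell, with a median log2 change of -1.10, while neutrophil markers rose (9 of 12, median 0.33). The summed level of the former went from 7903.5 to 8527.0 FPKM in control to 6409.8 to 6480.6 FPKM, and most of it was Lyz2, at means of 5967.2 and 4968.3 FPKM. Their part in these values was not tested. Ccl6 (chr11:83587882-83593087, minus strand) overlaps E230016K23Rik, a gene of the opposite strand that is not among the genes measured. Whether the counting used the strand is not given in the sources used here, so reads of the pair may not have been separated.

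Among the CXC ligands, Cxcl2 rose and Cxcl10 fell. Cxcl2, the neutrophil attractant, stood at 14.5, 14.1 and 19.3 FPKM in control and at 27.6, 27.0 and 21 FPKM in irradiated libraries. Irradiated replicate 3 was the lowest of its group and lay just above control replicate 3, the highest control. Cxcl2 rose by 0.63 ± 0.13 (limma adjusted p = 0.00733), or 1.57 times. Of the 50-base stretches of its annotated transcripts 5.84% also occur in Cxcl3, a neighbouring copy that was listed at 0 to 0.417 FPKM. Neutrophil markers (9 of 12) rose in the libraries in which Cxcl2 rose, and monocyte and macrophage markers (12 of 13) fell. The part of either in the rise of Cxcl2 was not tested.

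Cxcl10 stood at 6.5, 5.96 and 7.18 FPKM in control and at 3.24, 1.75 and 2.63 FPKM in irradiated libraries. All irradiated values were lower than all control values. Its log2 change of -1.11 ± 0.17 (limma adjusted p = 0.000857) was the largest in size among the 8 members, and its mean level after irradiation was 0.388 of the control mean. Cxcl16 was the least abundant, at 2.05, 3.92 and 2.07 FPKM in control and 1.26, 0.751 and 2.18 FPKM in irradiated libraries. Control replicate 2 and irradiated replicate 3 lay apart from the others of their groups, and the ranges overlapped. Cxcl16 did not pass the test (log2 change -0.62, 95% interval -1.17 to -0.08, limma adjusted p = 0.115), but it did without irradiated replicate 3 (-0.85, adjusted p = 0.0443). Without control replicate 2 its log2 change was -0.40 (adjusted p = 0.37) and without irradiated replicate 2 it was -0.42 (0.309). Cxcl10 and Cxcl16 each overlap a gene of the opposite strand, Art3 and Zmynd15, which were at most at 0.311 and 0.322 FPKM.

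The upstream sequences of Ccl3, Cxcl2 and Cxcl10 are shown because these genes moved in different directions and because both CXC ligands are textbook targets of NF-kB and, for Cxcl10, of interferon. Each run is the 250 bases before the annotated start, 5′ to 3′ on the strand of the gene, from RefSeq on GRCm38.p6. Capitals mark matches on either strand to the interferon-response motif GAAANNGAA or the NF-kB motif GGANNTTCC.
Cxcl2 (chr5:90903649-90903898, plus strand): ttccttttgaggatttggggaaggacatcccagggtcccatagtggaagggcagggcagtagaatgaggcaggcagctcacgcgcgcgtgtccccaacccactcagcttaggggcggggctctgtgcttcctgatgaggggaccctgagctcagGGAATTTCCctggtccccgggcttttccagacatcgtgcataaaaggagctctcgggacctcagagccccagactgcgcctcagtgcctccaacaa
Cxcl10 (chr5:92348890-92349139, minus strand): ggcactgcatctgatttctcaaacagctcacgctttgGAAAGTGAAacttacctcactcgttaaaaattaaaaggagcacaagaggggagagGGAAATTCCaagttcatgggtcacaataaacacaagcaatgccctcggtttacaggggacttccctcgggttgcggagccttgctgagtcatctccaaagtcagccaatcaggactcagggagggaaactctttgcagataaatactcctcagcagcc
Ccl3 (chr11:83649379-83649628, minus strand): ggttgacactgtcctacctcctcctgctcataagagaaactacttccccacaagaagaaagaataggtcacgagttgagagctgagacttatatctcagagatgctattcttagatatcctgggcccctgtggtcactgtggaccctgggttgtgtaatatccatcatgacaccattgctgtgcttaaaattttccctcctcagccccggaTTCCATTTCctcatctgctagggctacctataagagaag

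The table of upstream sequences matched 5 of the 8 members, Ccl3, Ccl6, Ccl9, Cxcl2 and Cxcl10. The interferon-response motif was found in Cxcl10, beginning 213 bases before the start, and in Ccl3, at 39 bases. It occurs in 7.16% of the 27025 upstream sequences of that length. The NF-kB motif was found in Cxcl2 (96 bases before the start) and in Cxcl10 (158 bases), and occurs in 3.56% of those sequences. A stricter form of each motif, with 1 more base, still matched Cxcl10 for the first motif and both CXC genes for the second, but Ccl3 no longer, and was found in 3.04% and 1.17% of all. The AP-1 motif TGANTCA, found in 6.87%, was present in Ccl9 (53 bases) and Cxcl10 (74 bases). The Ccl6 window held none of these 3 motifs, nor a match to the CRE letters TGACGTCA, the C/EBP letters TTGCNNCAA or the core promoter letters TATAAA. Of these last 3, only the core promoter letters were found in any member, in the Ccl9 window, with 3 matches of which 2 overlap. They occur in 13.0% of all windows, against 1.62% for CRE and 1.78% for C/EBP. A match is a run of letters and was not tested as a binding site. Cxcl2, which rose, and Cxcl10, which fell, both hold the NF-kB letters, and the part of the motif in either change was not tested.

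**Figure D2:**
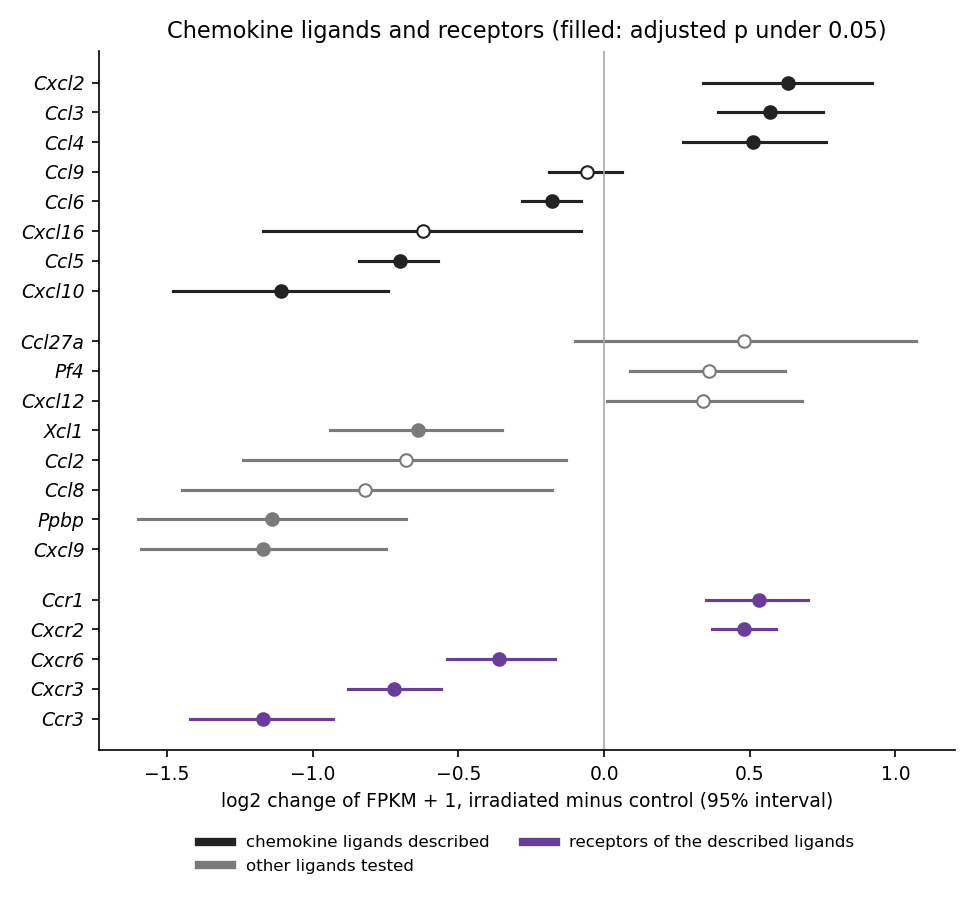
Log2 change of FPKM + 1 (irradiated minus control) with the 95% limma interval for the 8 chemokine ligands, the 8 other chemokine ligands tested and 5 receptors; filled points had an adjusted p under 0.05. Points right of 0 are higher after irradiation, as Ccl3, Ccl4, Cxcl2, Ccr1 and Cxcr2 are.

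The order of the levels changed at 1 place. In control libraries the order of the mean FPKM was Ccl6, Ccl5, Ccl3, Ccl9, Ccl4, Cxcl2, Cxcl10 and Cxcl16. In irradiated libraries Ccl3 stood above Ccl5, and the rest of the order was the same. Ccl5 was above Ccl3 in 3 of 3 control libraries and Ccl3 above Ccl5 in 3 of 3 irradiated libraries. The ranges of Ccl4 and Cxcl2 overlapped in both groups, and those of Cxcl10 and Cxcl16 overlapped in irradiated libraries. The ranges of all other neighbours in the order did not overlap. Among all genes listed, Ccl6 was at the 98.3 to 98.7 percentile of level in each library and Cxcl16 at the 29.6 to 45.5 percentile.

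The summed level of the 8 genes was slightly lower in each irradiated library, and its make-up differed more. The sum was 605.2, 605.2 and 641.6 FPKM in control and 581.6, 587.2 and 588.6 FPKM in irradiated libraries. Ccl6 made up 42.7% ± 0.560 (SD, n = 3) of that sum in control and 39.6% ± 0.978 in irradiated libraries. The share of Ccl5 was 22.9% ± 1.04 in control and 14.8% ± 1.04 in irradiated libraries, and that of Ccl3 was 15.4% ± 1.63 and 24.1% ± 0.146. The share of Ccl9 was 12.0% ± 0.866 and 12.1% ± 0.370. These shares describe the same values as the levels and were not tested.

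**Figure D3:**
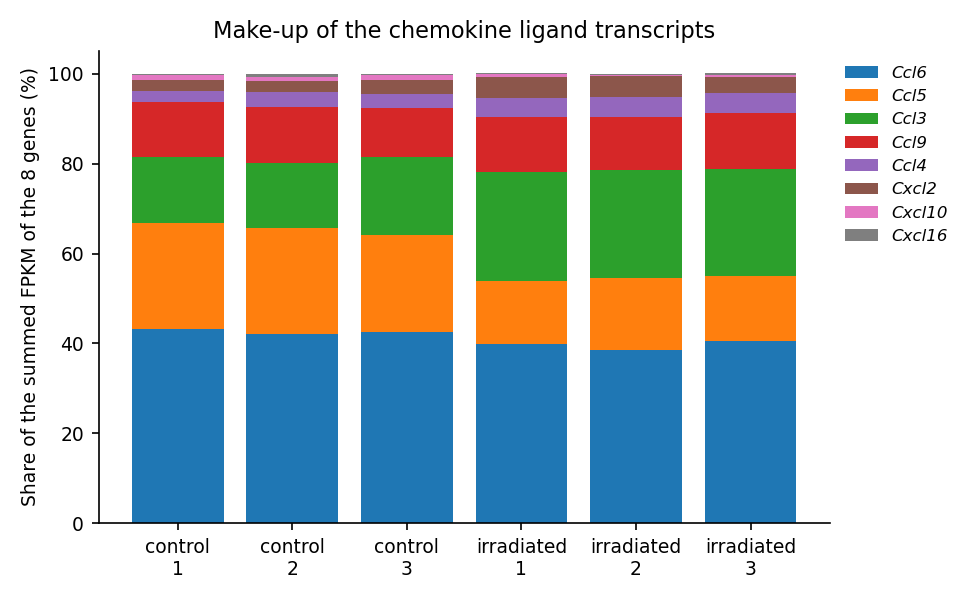
Share of each gene in the summed FPKM of the 8 chemokine ligands (%, stacked bars) in each library. The Ccl5 band is 21.7% to 23.5% in control and 14% to 15.9% in irradiated libraries, and the Ccl3 band is 14.5% to 17.3% and 24.0% to 24.2%.

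Ratios of unaltered FPKM between 2 members within a library do not depend on how the library was scaled. The ratios below were taken after adding 1 to each FPKM value, so this holds only in part, and least for the low genes Cxcl10 and Cxcl16. For 5 pairs the log2 ratio of FPKM + 1 was compared between the groups with a two-sided exact permutation test. For this test 3 against 3 libraries allow no p below 0.1. Cxcl10 over Cxcl2 was at -1.16 ± 0.14 (SD, n = 3) in control libraries. After irradiation it was at -2.90 ± 0.39, an irradiated minus control value of -1.74, at the smallest exact p of 0.1. This ratio restates the changes of both genes given above. Their groups did not overlap, in opposite directions, so that p was fixed in advance and adds no support. Ccl6 over Ccl9 was at 1.82 ± 0.10 and 1.70 ± 0.01, also at an exact p of 0.1. Both had a p of 0.25 after Benjamini-Hochberg adjustment over the 5 pairs. Ccl3 over Ccl4 was at 2.34 ± 0.24 and 2.40 ± 0.06 (exact p = 0.9), and Cxcl2 over Ccl3 at -2.51 ± 0.05 and -2.45 ± 0.21 (exact p = 0.7). Cxcl16 over Cxcl10 was at -1.07 ± 0.50 and -0.59 ± 0.36 (exact p = 0.3). The differences of these last 3 pairs were within the spread between libraries.

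The 5 CC ligands lie in 1 cluster on chromosome 11 (GRCm38, annotation GENCODE M21), from the left end of Ccl5 (chr11:83525778-83530518, minus strand) to Ccl4 (chr11:83662584-83664683, plus strand). Along the cluster Ccl5 fell, and Ccl3 and Ccl4 at 122.1 and 136.8 kb rose. Between these, Ccl9 at 47.1 kb did not pass. Ccl6 at 62.1 kb was called lower, with the small log2 change of -0.18 and the lost calls given above. Beyond Ccl4, at 178.2 kb, Wfdc17, which encodes a small secreted protein of the whey acidic protein family, rose by 1.5 ± 0.08 (limma adjusted p = 4.04e-07). Wfdc17 was chosen after its values were seen. On the other side Heatr9, at means of 1.4 and 1.87 FPKM, and Taf15 at -52.7 kb did not pass (log2 changes 0.22 ± 0.33 and -0.13 ± 0.07). The CXC ligand Cxcl10 (chr5:92346638-92348889, minus strand) lies beside Cxcl9, another interferon-induced ligand of Cxcr3. Cxcl9 was at 2.23, 2.40 and 1.33 FPKM in control and 0.474, 0.3 and 0.17 FPKM in irradiated libraries, with a log2 change of -1.17 ± 0.19 (limma adjusted p = 0.00162). Near Cxcl2 (chr5:90903871-90905938, plus strand) lie Ppbp and Pf4, chemokines of platelets. Ppbp was low, at 2.13, 2.38 and 1.29 FPKM in control and 0.231, 0.633 and 0.131 FPKM in irradiated libraries. It fell by 1.14 ± 0.21 on the log2 scale (limma adjusted p = 0.00311). Pf4 was higher in each irradiated library than in any control library but did not pass (0.36, adjusted p = 0.0656), except with median-of-ratios (0.0443) or quantile (0.0390) normalization.

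**Figure D4:**
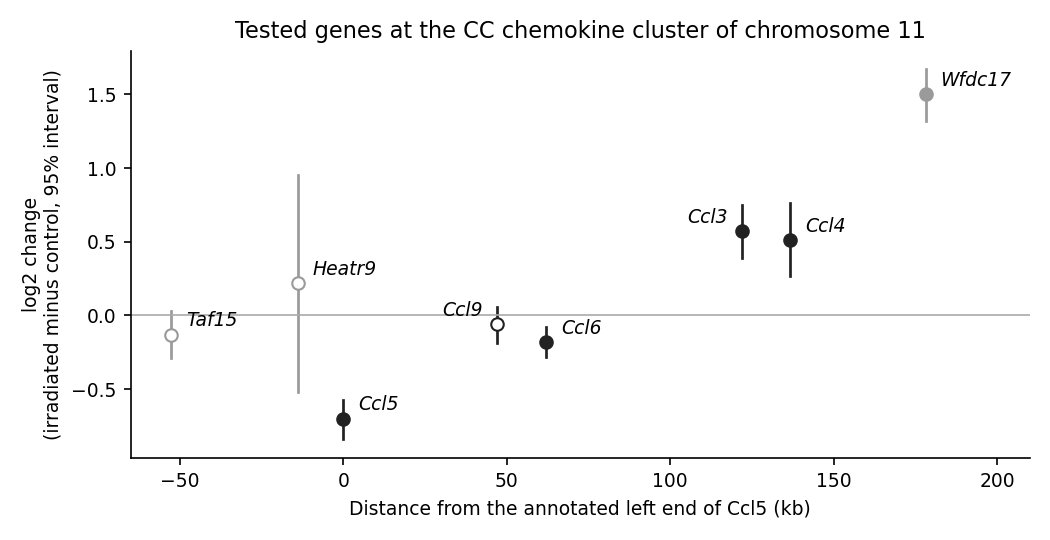
Log2 change of FPKM + 1 (irradiated minus control, 95% limma interval) of the tested genes of the CC chemokine cluster against the distance in kb from the left end of Ccl5; black points are members and grey points are neighbours, open where the adjusted p was not under 0.05. Members range from -0.70 at Ccl5 to 0.57 at Ccl3, with Ccl4 at 0.51. The neighbours Taf15, Heatr9 and Wfdc17 are at -0.13, 0.22 and 1.5.

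Of the 33 other chemokine ligand genes on the list, 24 were among the genes measured and 8 passed the filter. Of these 8, limma called 3 lower and 0 higher, with a median log2 change of -0.66. Among all genes tested 10.3% were called lower and 6.29% higher. Cxcl9, Ppbp, Ccl2 and Ccl8 had control means of 1.99, 1.94, 1.65 and 1.59 FPKM. Their irradiated means were 0.315, 0.332, 0.582 and 0.435 FPKM, so they passed the filter through the control libraries. Ccl27a, at means of 0.874 and 1.81 FPKM, passed it through the irradiated libraries. The count and the median thus depend on the filter. The genes that fell were Cxcl9, Ppbp and Xcl1, a ligand made by activated T and NK cells. Xcl1 went from 28.5, 18.9 and 19.4 FPKM to 13.2, 13.9 and 13.8 FPKM (log2 change -0.64 ± 0.14, limma adjusted p = 0.00751). The monocyte attractant Ccl2 (-0.68, adjusted p = 0.0922) and Ccl8 (-0.82, adjusted p = 0.0818) did not pass, but did without control replicate 2 (Ccl2, 0.0349) or control replicate 3 (Ccl8, 0.0270). Both depended on single libraries the other way too, with Ccl2 at -0.39 (adjusted p = 0.274) without control replicate 3 and Ccl8 at -0.53 (0.283) without control replicate 2. Cxcl12, which holds progenitors in the marrow and comes mainly from stromal cells, was at 1.40 to 1.98 FPKM in control and 2.15 to 2.64 FPKM after irradiation. It did not pass (0.34, adjusted p = 0.156).

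Of 5 receptors of the members described here, Ccr1 and Cxcr2 rose and Ccr3, Cxcr3 and Cxcr6 fell. Ccr1, the receptor of Ccl3, Ccl5, Ccl6 and Ccl9, rose from 42.0, 36.2 and 40.7 FPKM to 53.0, 62.0 and 57.6 FPKM (log2 change 0.53 ± 0.08, limma adjusted p = 0.000825). Cxcr2, the neutrophil receptor of Cxcl2, rose from 67.1 to 67.8 FPKM in control libraries to 93.4 to 94.9 FPKM (0.48 ± 0.05). All irradiated values of both genes lay above all control values. Of the ligands of Ccr1, Ccl3 rose with it and Ccl5 and Ccl6 fell. The eosinophil receptor Ccr3 changed by -1.17 ± 0.11, and eosinophil markers (3 of 5, Ccr3 among them) fell too. Cxcr3, the receptor of Cxcl10 on T and NK cells, changed by -0.72 ± 0.07. Cxcr6, the receptor of Cxcl16, changed by -0.36 ± 0.08 (limma adjusted p = 0.0129), and lost its call without control replicate 2 (0.0588). Cxcr2 is also on the neutrophil list, and the part of cell make-up in the receptor values was not tested.

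Of 11 other chemokine receptors tested, 1 rose and 5 fell, with a median of -0.54. The neutrophil receptor Cxcr1 rose by 1.14 ± 0.25, at levels of at most 3.66 FPKM. Cx3cr1, Ccr8, Ccrl2, Ccr9 and Ccr4 fell, by between 1.10 for Cx3cr1 and 0.64 for Ccr4 on the log2 scale. Ccr8, Ccrl2, Ccr9 and Ccr4 were low, at control means of 3.75, 5.04, 2.76 and 4.01 FPKM. Their irradiated means were 1.28, 2.07, 0.958 and 2.21 FPKM. Cx3cr1 is also on the monocyte and macrophage list. The call of Ccr4 was lost without control replicate 1 (adjusted p = 0.0636). Ccr2, the monocyte receptor, was at 110.4 ± 3.77 and 108.1 ± 6.85 FPKM (SD, n = 3) and did not pass (limma adjusted p = 0.778).

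Of 8 proteases that cut or shed chemokines, 4 rose and 2 fell. The rises were in the neutrophil enzymes Mmp9 (0.66 ± 0.04), Ctsg (0.61 ± 0.05), Prtn3 (0.45 ± 0.04) and Mmp8 (0.35 ± 0.05), while the neutrophil elastase gene Elane, at means of 1488.7 and 1552.7 FPKM, did not pass (0.06 ± 0.05, adjusted p = 0.453). Both Mmp genes and Elane are also on the neutrophil list. Dpp4, which trims the start of Cxcl10 and Ccl5, changed by -0.72 ± 0.14 (limma adjusted p = 0.00408). Adam10, which sheds Cxcl16 from the membrane, was at 42.8 ± 1.85 and 41.6 ± 0.516 FPKM and did not pass (adjusted p = 0.731). Adam17 changed by -0.30 ± 0.08 (limma adjusted p = 0.0244), and the call was lost without control replicate 1 (0.0903), control replicate 2 (0.106), irradiated replicate 1 (0.0552) or irradiated replicate 3 (0.0667).

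Of 20 regulators of chemokine transcripts counted here, 1 rose and 9 fell, with a median of -0.29. The interferon regulators Irf7 and Stat2 changed by -1.88 ± 0.08 and -0.58 ± 0.09, and Ifng, which induces Cxcl9 and Cxcl10, by -0.97 ± 0.20. Of the same kind, Irf8, which is also on the dendritic cell list, changed by -0.65 ± 0.05. Irf1 (-0.21, adjusted p = 0.0821) and Irf3 (-0.04, adjusted p = 0.811) did not pass, but Irf1 did without irradiated replicate 1 (0.0404). The NF-kB subunit gene Nfkb1 changed by -0.28 ± 0.06. The subunit genes Nfkb2 and Relb both changed by -0.49, but Nfkb2 lost its call without control replicate 1 (0.0502), control replicate 3 (0.0587), irradiated replicate 1 (0.0518) or irradiated replicate 3 (0.0514). Relb lost its call without any 1 of the 6 libraries (0.0555 to 0.119), without a filter (0.0781), with quantile normalization (0.0557) and with the replicate block (0.0727). Rela (-0.15) and Rel (-0.31) did not pass, and the inhibitor gene Nfkbia was at 74.0 ± 4.52 and 74.3 ± 1.81 FPKM (SD, n = 3). Tnf, a cytokine that induces Cxcl2 and Ccl3, rose from 8.91, 7.20 and 8.99 FPKM to 11.1, 16.7 and 19.0 FPKM (0.80 ± 0.17, limma adjusted p = 0.00771), a call lost without the filter on low values (0.0507). Il1b, which induces Cxcl2 as well, changed by -1.33 ± 0.07. Zfp36, whose protein marks such transcripts for decay, did not pass (0.13, adjusted p = 0.365), but did without control replicate 3 (0.0281). Of its relatives, Zfp36l1 fell by 0.59 ± 0.10 on the log2 scale (limma adjusted p = 0.00191) and Zfp36l2 did not pass (-0.10, adjusted p = 0.35). Klf13, a factor known to act on Ccl5 in T cells, was at 53.0 ± 3.58 and 46.3 ± 0.982 FPKM and did not pass (adjusted p = 0.0776), but did without control replicate 3 (0.0345).

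The genes with the profile nearest to each member over the 6 libraries were found among 7891 or 7892 genes averaging 5 FPKM or more, by the root mean square difference of centred log2(FPKM + 1) values. This measure includes the difference between the groups and is given as a description. For Ccl3 the nearest were Cd33 (0.045), Syne2 (0.051) and Il1r2 (0.053). For Ccl4 they were Klhl2 (0.044), Slc22a4 (0.071) and Map11 (0.076). For Cxcl2 they were Krtcap3 (0.059), Pi16 (0.094) and Top3b (0.099), whose irradiated replicate 3 was also the lowest of its group. For Ccl5 they were Slc40a1 (0.038), Il2rb (0.040) and Irf8 (0.041). For Cxcl10 they were Tgtp2 (0.126), H2-Q9 (0.134) and Trim30a (0.135), and for Cxcl16 Clec10a (0.211), Dmac1 (0.231) and Ddx24 (0.232), which were less near. Ccl6 and Ccl9, with small differences, had nearer genes, among them Cd44 (0.023) and Rbm14 (0.024) for Ccl6 and Ywhab (0.018) for Ccl9.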

How the data were processed

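There were 6 libraries, 3 control and 3 irradiated, grouped by the sample titles. The authors deposited 1 FPKM value per gene and library. The unit was read from the values, since column totals differed (451444 to 485365) while length-weighted sums were nearly constant (1465015 to 1476166). Per the submitters' processing notes the tools were fastp, HISAT2 and StringTie and the builds named GRCm38 and mm10. Versions, settings, annotation and strand use were not given in the sources used here. Per the labels' protocols library construction used the TruSeq Stranded mRNA LT kit. The absolute depth is unknown. Relative depth came from genes below 0.1 FPKM, by the scale at which most fell on quotients of integers no larger than 6 (tolerance 0.001).

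The 10666 genes averaging 1 FPKM or more were fitted together in limma 3.58.1 (R 4.3.3) after a log2 transform with a pseudocount of 1. Moderated two-sided p-values used the trend option and were adjusted by Benjamini and Hochberg's method over all of them, with a threshold of 0.05. The test was checked on simulated data. Tables and plots used Python 3.11.15. Whether replicates are separate animals is not stated, and p-values then cover only the spread among these libraries, possibly technical. The 12 alternatives left out each library in turn, added the replicate number as a block, used median-of-ratios scaling or quantile normalization, set the pseudocount to 0.1, dropped the filter, or raised it to 5 FPKM.

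Named genes were the members, the other ligands that passed the filter, lists of receptors, proteases and regulators, the chemokine genes of the same clusters, and the 3 nearest profiles of each member. There were 11 marker lists. Some genes of these lists and profiles are not reported here, and list counts and medians leave them out. Members, lists and motifs were chosen with earlier results of these data known. Both motifs in capitals were shortened by 1 base after a first search.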

Additional observations from a re-analysis of the deposited data

How the results depend on the processing

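The calls of Ccl3, Ccl4, Ccl5 and Cxcl2 held in 12 of 12 alternatives and that of Cxcl10 in 11 of 11, since it was below the minimum mean of 5 FPKM. Ccl6 kept its call in 8 of 12, with log2 changes from -0.20 to -0.15, and the cause was not tested. Ccl9 never passed, at adjusted p from 0.297 to 0.799, and Cxcl16 passed in 1 of 11. Without a filter the adjusted p of Ccl4 was 0.0431 and that of Cxcl2 was 0.0458. Among other ligands 1 gene, Pf4, was higher with median-of-ratios scaling and with quantile normalization, and 1 was lower at a minimum mean of 5 FPKM, where fewer genes were tested. At that minimum 4 receptors were lower, against 8 before. Leaving out 1 library gave 414 to 684 genes higher and 722 to 978 lower over all genes, against 671 and 1100 with all 6. The lowest counts came without control replicate 2.

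Small values that were not called turned their sign. Ccr2 was at 0.00 with median-of-ratios scaling and between -0.07 and 0.02 when 1 library was left out. Nfkbia ran there from -0.02 to 0.06 and Irf3 from -0.09 to 0.04. Heatr9 ran from -0.13 to 0.55. The ratio of Ccl3 over Ccl4 differed by -0.08 to 0.14 and that of Cxcl2 over Ccl3 by -0.01 to 0.18. The cause was not tested.

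Same-numbered libraries did not deviate together (r = 0.011, -0.042 and -0.023 for numbers 1, 2 and 3, across genes), so the numbers were not taken as pairs. With the replicate number as a block 3 members were higher and 3 lower, as without it, and 558 genes were higher and 948 lower over all genes.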

Other observations

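There were 16 other chemokine ligand genes measured below the filter, which the main test left out. The highest value among them was 1.64 FPKM, for Ccl12 in 1 library, and Ccl12 was listed at 0 in 4 of 6. The Treg-attracting ligands Ccl17 and Ccl22 reached at most 1.21 and 0.619 FPKM, and Cxcl1, the close relative of Cxcl2, at most 0.130 FPKM. Cxcl13, a B cell attractant, was listed at 0 in 5 of 6 libraries. Differences between the groups are not described at these levels, though the alternative without a filter fitted these genes too.

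Near Cxcl16 on chromosome 11 lies Arrb2, which encodes the beta-arrestin that switches off activated chemokine receptors, and which was chosen after its values were seen. Arrb2 stood at 161.6, 168.6 and 182.7 FPKM in control and 256.5, 267.5 and 259.3 FPKM in irradiated libraries. All irradiated values were higher, with a log2 change of 0.61 ± 0.05 (limma adjusted p = 1.69e-05). Med11, between the pair, did not pass (0.18, adjusted p = 0.299).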
